A study of Mus musculus with 4 samples.

Results

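The clustered histone genes were taken as the protein-coding rows of the deposited expression table whose gene name begins with Hist1h, Hist2h, Hist3h or Hist4h, and 67 of the 54532 rows met this rule. They comprised 6 genes for the linker histone H1, 18 for H2A, 18 for H2B, 12 for H3 and 13 for H4. RNA was measured by sequencing in 4 libraries from mouse cells that the labels call primary lung fibroblasts, in a study on calumenin and the aggregation of misfolded vimentin in organ fibrosis. The 2 WT libraries carried the genotype label Calu-WT and the 2 Calu-KO libraries the label Calu-KO. Calumenin, the product of Calu, binds calcium within the secretory pathway. The titles of the Calu-KO libraries carry the letters KD, and how Calu was targeted and the strain, age and treatment were not given. Nothing in the labels ties the replicates to different animals or cultures. The p-values therefore measure the spread between these samples alone, and that spread may be technical.

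Core histones H2A, H2B, H3 and H4 form the spool around which DNA winds, and linker histone H1 binds where DNA enters and leaves it. Most clustered histone genes are transcribed in S phase, when new DNA has to be packaged, and their mRNAs end in a conserved stem-loop bound by the protein SLBP instead of a poly(A) tail. Some of these genes also give longer, polyadenylated transcripts in cells that differentiate or stop dividing. The use of poly(A) selection was also not given. A low value for a histone gene can therefore reflect few transcripts or transcripts without a tail, and these cannot be told apart.

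The stem-loop was searched in the GENCODE M21 transcripts of all 67 genes as a stem of 6 base pairs with a loop of 4 bases, and it was found in 46. The following sites are shown because they represent the main sequence versions among the genes with the most reads, 5′ to 3′ with the stem-loop in capitals and 5 bases on either side.
Hist1h1c: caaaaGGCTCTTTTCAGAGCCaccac
Hist1h3e: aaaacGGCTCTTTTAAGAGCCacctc
Hist1h3g: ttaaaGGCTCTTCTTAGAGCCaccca
Hist4h4: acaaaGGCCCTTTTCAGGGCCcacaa
Hist2h4: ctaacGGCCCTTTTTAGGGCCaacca
The version in Hist1h1c was the most frequent, in 26 genes of the H1, H2A, H2B and H3 classes, and that of Hist4h4 was found in 7 genes, all of the H4 class. The version of Hist1h3e occurred in 6 genes, that of Hist2h4 in 2 H4 genes, and that of Hist1h3g in no other member. In Hist1h1c the annotated transcript ran on for 840 bases past the stem-loop, and in Hist4h4 for 2445 bases, whereas in Hist1h3g it ended 47 bases after it.

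The libraries held 15635448 to 16510048 reads assigned to genes, recovered from FPKM (fragments scaled by the length of the gene and the size of the library). Calu, the targeted gene, was at 178 and 177 FPKM in WT and at 14.9 and 10.9 FPKM in Calu-KO. The Calu-KO libraries correlated with each other at 0.966 across tested genes on the log scale, against 0.989 for the WT pair, and mitochondrial reads made up 4.002% of Calu-KO replicate 2 against 2.43% to 2.53% of the others. Of 6 fibroblast markers 5 reached a mean of 1 FPKM, with Thy1 near 0, whereas 0 of 6 lung mesenchyme factors did and 3 had no read. Markers of lymphocytes, epithelium and endothelium were near 0. The part of these differences between libraries in the results for the histone genes was not tested, and in bulk RNA fewer cells of a type and less RNA per cell cannot be told apart.

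Reads from the clustered histone genes were few and unevenly spread. Over the 4 libraries, 21 of the 67 genes had no read, 20 had 1 to 9 reads, 9 had 10 to 19, and 17 had 20 or more. Only 6 reached the mean of 1 FPKM required for the test across all genes. Hist1h1c alone held 55.2% of all reads on these genes, Hist2h2be 14.1% and Hist1h2bc 7.06%. A gene with no read in a library could still hold up to 3 reads by counting error, which for a gene of 1 kb is 0.177 to 0.205 FPKM. Such floors and the counting intervals below cover counting error only.

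Calu-KO libraries held less histone RNA in sum. Replicates 1 and 2 of WT had 1582 and 1501 reads on the 67 genes, against 549 and 390 reads in replicates 1 and 2 of Calu-KO. Summed FPKM was 69.8 and 64.2 in WT and 24.7 and 21.3 in Calu-KO, a 2.91-fold lower mean. The linker class carried most of this difference, with 40.2 and 37.2 FPKM in WT against 8.15 and 5.57 in Calu-KO, 5.63-fold lower. H2B sums were 14.6 and 15.7 FPKM in WT against 6.16 and 6.52 in Calu-KO, 2.39-fold lower. For H1 and H2B both Calu-KO libraries lay below both WT libraries by more than the spread within either group.

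The summed FPKM of the other core classes overlapped between the groups. H2A summed to 3.38 and 1.49 FPKM in WT against 1.40 and 2.29 in Calu-KO, a log2 change of -0.40. In reads the H2A sums did not overlap, at 52 and 30 in WT against 24 and 23 in Calu-KO, a log2 change of -0.85 as a share of all reads. H3 summed to 8.32 and 4.93 FPKM in WT against 7.13 and 2.80 in Calu-KO, and H4 to 3.33 and 5.01 against 1.87 and 4.13. The H3 and H4 sums overlapped in reads as well, at 77 and 47 against 74 and 27 for H3, and 29 and 45 against 28 and 33 for H4. Without Hist1h1c the other 66 genes summed to 31.5 and 28.7 FPKM in WT against 17.2 and 16.2 in Calu-KO, 1.80-fold lower, so the groups remained apart with a smaller ratio. The share of Hist1h1c among histone reads was 62.0% and 61.4% in WT and 36.3% and 30.0% in Calu-KO.

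**Figure D1:**
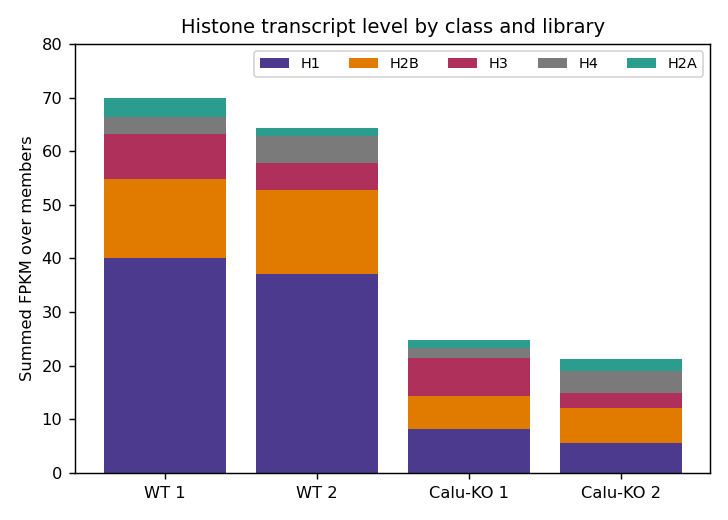
Summed FPKM of the clustered histone genes in each of the 4 libraries, stacked by histone class. The totals were 69.8 and 64.2 in WT and 24.7 and 21.3 in Calu-KO, and the H1 segment, mostly Hist1h1c, measures 40.2 and 37.2 in WT and 8.15 and 5.57 in Calu-KO.

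Among the 17 genes with 20 or more reads, both Calu-KO libraries lay below both WT libraries in 11 (64.7%) and above both in 1, Hist4h4. Among all 15269 genes with 20 or more reads the same held for 30.1% in the lower and 29.2% in the upper direction. The remaining 5 genes overlapped between the groups. By class, the lower pattern was found in 3 of 3 H1 genes, 1 of 2 H2A genes, 5 of 6 H2B genes, 1 of 3 H3 genes and 1 of 3 H4 genes. The exact 95% counting interval of the ratio of Calu-KO to WT reads, scaled to library size, lay under 1 for 9 of the 17 genes and over 1 for 2. Over all genes with 20 or more reads it lay under 1 for 32.0% and over 1 for 32.6%, but those genes had a median of 1331 reads against 45 for the 17, and so narrower intervals. The intervals leave out the variation between libraries.

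**Figure D2:**
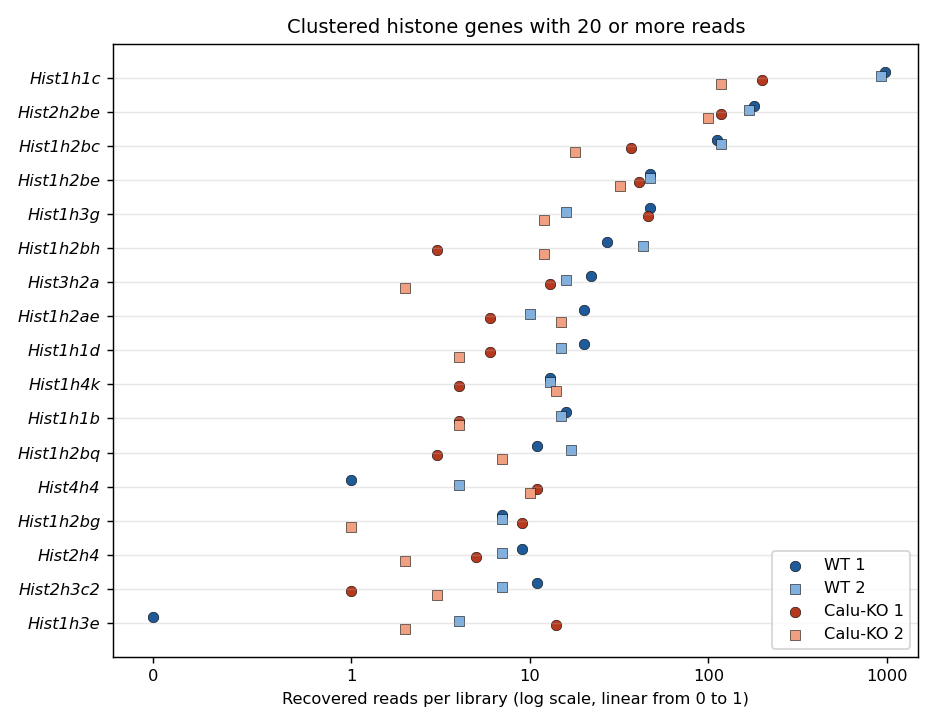
Recovered reads in each library for the 17 clustered histone genes with 20 or more reads, on a log axis that is linear from 0 to 1. Blue symbols are WT and red symbols Calu-KO, and in 11 genes both red symbols lie to the left of both blue ones.

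In the test across the 11885 genes whose mean reached 1 FPKM (limma on log2(FPKM + 1), Benjamini-Hochberg adjusted p under 0.05), 2 of the 6 tested histone genes fell, Hist1h1c and Hist1h2bc, and 0 rose. Across all tested genes 1.83% fell and 0.942% rose. All 6 fitted log2 changes were negative, with a median of -0.43 against 0.0072 over all tested genes. At an unadjusted p under 0.05, 3 of the 6 were lower and 0 higher, against 12.7% lower and 12.0% higher of all tested genes. The count of histone genes that fell was 1 without WT replicate 1 or without WT replicate 2, when 0.320% and 0.286% of all tested genes fell. It was 3 without Calu-KO replicate 1 or without Calu-KO replicate 2, when 23.6% and 9.51% of all tested genes fell, so the count moved with that of the whole table. With no filter on low values 0 of 46 histone genes and 0 of 24462 genes passed by the same test. At an unadjusted p under 0.05, 11 of the 46 were then lower and 2 higher, against 15.9% of all genes in either direction. On simulated reads limma on this scale made a greater share of false calls than its threshold allows, which bears on each limma call given here. With only 6 of 67 genes tested, these counts describe the most abundant members and not the family.

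Among the linker histone genes, which encode closely related somatic H1 subtypes and the testis form Hist1h1t, Hist1h1c had 980 and 922 reads in WT against 199 and 117 in Calu-KO. Its level was 38.4 and 35.6 FPKM in WT (37.0 ± 1.97, SD, n = 2) and 7.54 and 5.13 FPKM in Calu-KO, 5.83-fold lower on the means. The groups were far apart, and the log2 change was -2.39 ± 0.19 (SE; limma, adjusted p = 0.0170). The gene also passed the threshold with any single library removed. Hist1h1c was also the clustered histone gene with the highest level per length in every library.

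The other linker genes were much lower. Hist1h1d had 20 and 15 reads in WT against 6 and 4 in Calu-KO, a ratio of 0.299 (95% interval 0.132 to 0.617). Hist1h1b had 16 and 15 reads in WT against 4 and 4 in Calu-KO, a ratio of 0.270 (0.107 to 0.601). Both had lower values in each Calu-KO library than in either WT library, and neither reached the level for the test. Hist1h1e had 11 reads in all, 10 of them in WT. Hist1h1a had 6 reads, 3 in each group, and Hist1h1t, the testis form, had none. The 5 linker genes without Hist1h1c together had 43 and 36 reads in WT against 13 and 9 in Calu-KO.

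The start-site regions of 4 linker genes are shown because this class differed most between the groups. They are those of the 3 with 20 or more reads, and that of Hist1h1a, which lacks the motif AAACACA. RefSeq promoter sequences (GRCm38.p6, 250 bases before to 50 after the start) were matched for 62 of the 67 genes, with 64 entries. The promoter of H2ac23 was matched to both Hist1h2ao and Hist1h2ap and is counted for each. The windows run from 130 to 11 bases before the start and read 5′ to 3′ on the gene's strand. Capitals mark AAACACA (the H1 box), CCAAT or its reverse complement ATTGG, and TATAAA. Hist1h1c lies at chr13:23738677-23738796 on the plus strand, Hist1h1d at chr13:23554902-23555021 on the plus strand, Hist1h1b at chr13:21780636-21780755 on the minus strand and Hist1h1a at chr13:23763538-23763657 on the plus strand.
Hist1h1c: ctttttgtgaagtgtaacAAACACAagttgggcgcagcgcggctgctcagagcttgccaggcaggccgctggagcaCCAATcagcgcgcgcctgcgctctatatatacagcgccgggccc
Hist1h1d: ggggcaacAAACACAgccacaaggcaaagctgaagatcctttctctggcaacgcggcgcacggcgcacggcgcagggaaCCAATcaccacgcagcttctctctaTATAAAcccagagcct
Hist1h1b: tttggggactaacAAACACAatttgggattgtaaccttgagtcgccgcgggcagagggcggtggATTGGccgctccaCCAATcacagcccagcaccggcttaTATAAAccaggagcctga
Hist1h1a: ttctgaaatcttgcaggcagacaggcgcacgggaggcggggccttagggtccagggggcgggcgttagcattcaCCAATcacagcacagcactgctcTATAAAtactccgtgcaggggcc
The H1 box was found at 112 bases before the start in Hist1h1c, and in 5 of the 6 linker promoters in all, Hist1h1a being the exception. Searched on both strands over the whole 300 bases, AAACACA was present in 9 of the 64 histone entries and in 7.18% of all 32851 RefSeq promoters. CCAAT was present in 55 of the 64, in every H1, H2A, H2B and H3 entry but in 3 of 12 H4 promoters, against 37.4% of all promoters. TATAAA was present in 35 of the 64, against 13.6% of all. Among the 6 linker promoters it was found in 4, and not in those of Hist1h1c and Hist1h1t. The octamer core TTTGCAT was present in 15 of the 64, against 4.63% of all. These 4 motifs share no bases with one another in the windows shown, and a match is a description of sequence and not of binding.

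Hist1h2ae, which encodes a canonical H2A, had 20 and 10 reads in WT against 6 and 15 in Calu-KO, so the groups overlapped and the log2 change was -0.23 ± 0.33 (SE; limma, adjusted p = 0.685). The sign turned without WT replicate 1 (0.05) or without Calu-KO replicate 1 (0.13). Hist3h2a, an H2A gene outside the large cluster, had 22 and 16 reads in WT against 13 and 2 in Calu-KO, a ratio of 0.413 (0.211 to 0.769). Its annotated gene lies wholly inside Trim17 on the same strand, which had 96 reads, so some of its reads may belong to that gene. Of the 18 H2A genes 10 had no read. The median share of their transcripts' 100-base stretches that occur in no other gene was 30.1%, against 99.6% for H1. The search counted overlapping genes on either strand as other genes, and many H2A genes hold a short miRNA gene on the opposite strand. Reads from H2A genes may thus have been split among copies or overlapping genes, or discarded.

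The H2B genes held 3 of the 4 most abundant members by reads. Hist2h2be had 179 and 169 reads in WT against 118 and 100 in Calu-KO, a ratio of 0.656 (0.551 to 0.779). Its log2 change was -0.47 ± 0.13 (SE; limma, adjusted p = 0.125), which did not pass the threshold although the groups did not overlap. Without Calu-KO replicate 1 the change was nearly the same, -0.48 at adjusted p = 0.0305, in a setting where 23.6% of all tested genes passed as lower. Hist1h2bc had 111 and 118 reads in WT against 37 and 18 in Calu-KO. Its level fell from 5.86 and 6.15 FPKM to 1.89 and 1.07 FPKM, 4.06-fold lower on the means, with a log2 change of -1.52 ± 0.20 (SE; limma, adjusted p = 0.0380). This call was lost when either WT library was left out, where limma gave adjusted p-values of 0.107 (replicate 1 removed) and 0.126 (replicate 2 removed). With all 4 libraries it was also lost on rescaling to equal totals (0.0596), with a filter at 0.1 FPKM (0.0673) and with no filter (0.145).

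The H2B genes below the level for the test varied more. Hist1h2be had 47 and 47 reads in WT against 41 and 32 in Calu-KO, lower in both Calu-KO libraries with a ratio whose interval included 1 (0.813, 0.590 to 1.12). Hist1h2bh had 27 and 43 reads in WT against 3 and 12 in Calu-KO, a ratio of 0.224 (0.119 to 0.396). Hist1h2bq had 11 and 17 reads in WT against 3 and 7 in Calu-KO, with both Calu-KO libraries below both WT libraries. Hist1h2bg had 7 and 7 reads in WT against 9 and 1 in Calu-KO, an overlap between the groups. Hist1h2bf had 5 and 10 reads in WT against none in Calu-KO, and the interval of its ratio reached up to 0.292. With the floor of 3 reads set over both Calu-KO libraries, its level was 4.77-fold below the WT mean. That value leaves out the counting error in WT and is not a lower bound. The annotated Hist1h2be shares 496 bases with Hist1h1e on the same strand, so reads there could be assigned to either gene.

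The H3 genes showed no common direction. Hist1h3g had 47 and 16 reads in WT against 46 and 12 in Calu-KO, or 5.42 and 1.82 FPKM against 5.13 and 1.55. The replicate 1 library was about as high in both groups, and so was the replicate 2 library about as low, so the 2 groups could not be told apart (log2 change -0.10 ± 0.56, SE; limma, adjusted p = 0.919). The sign turned without WT replicate 1 (0.49) or without Calu-KO replicate 2 (0.53). Hist2h3c2 had 11 and 7 reads in WT against 1 and 3 in Calu-KO, a ratio of 0.233 (0.0572 to 0.706). Hist1h3e went the other way, with 0 and 4 reads in WT against 14 and 2 in Calu-KO, and its interval lay over 1 although the libraries overlapped. Of the 12 H3 genes, 9 had fewer than 20 reads.

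**Figure D3:**
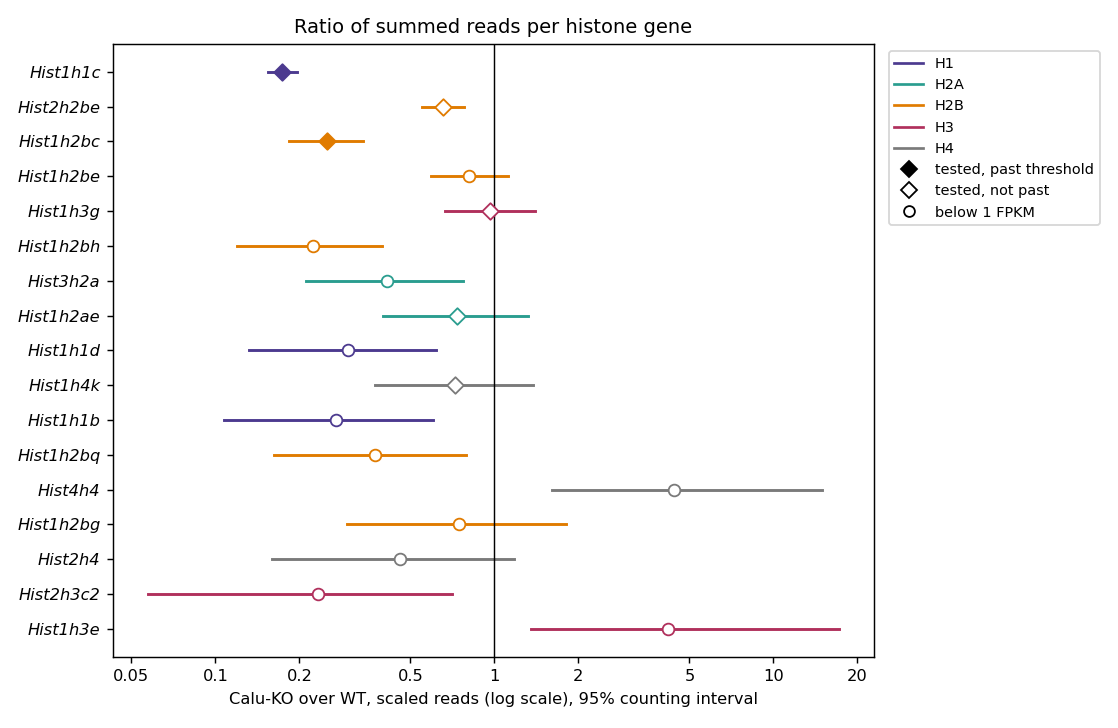
Ratio of Calu-KO to WT reads, scaled to library size, for the 17 genes with 20 or more reads, on a log axis with the exact 95% counting interval. Filled diamonds mark Hist1h1c and Hist1h2bc, which passed the limma threshold, open diamonds the 4 tested genes that did not, and circles the genes under 1 FPKM. Of the 17 intervals, 9 lie under 1 and those of Hist4h4 and Hist1h3e lie over it.

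Among the H4 genes, Hist1h4k had 13 and 13 reads in WT against 4 and 14 in Calu-KO, with a log2 change of -0.40 ± 0.41 (SE; limma, adjusted p = 0.563). The Calu-KO libraries lay on either side of WT. Without Calu-KO replicate 1 the change was 0.21, and without Calu-KO replicate 2 it was -1.004 at adjusted p = 0.0263, in a setting where 9.51% of all tested genes passed as lower. Hist4h4, the single clustered histone gene on chromosome 6, had 1 and 4 reads in WT against 11 and 10 in Calu-KO, a ratio of 4.395 (1.61 to 14.9). It was the one gene of the 17 with both Calu-KO libraries above both WT libraries. Hist2h4 had 9 and 7 reads in WT against 5 and 2 in Calu-KO, a ratio whose interval included 1 (0.458, 0.159 to 1.18). Copies of the H4 gene encode the same protein.

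The 29 genes with 1 to 19 reads held 61 and 71 reads in WT against 29 and 35 in Calu-KO. With reads as the input (voom in limma, for genes with 10 or more reads), 26 histone genes could be tested, and 22 had a negative log2 change, with a median of -1.32 against -0.021 over all 17155 genes. The genes past the threshold were again Hist1h1c and Hist1h2bc, 2 lower and 0 higher, while 3.91% of all genes tested in this way were lower and 2.69% higher. Hist1h2bf and Hist1h2bh came nearest after them, at adjusted p = 0.0896 and 0.0918. Hist4h4 had the opposite sign, 2.14 ± 0.91 (SE, log2), at adjusted p = 0.189.

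Length of the annotated gene and sequence shared with other genes went with the number of reads. The 18 genes longer than 1000 bases held 88.9% of all histone reads and 1 of them had no read, whereas 20 of the 49 shorter genes had none. The 18 genes annotated more than 200 bases past the stem-loop held 67.7% of the reads with a median of 18.5 reads, against 7.09% and a median of 2 for the 28 genes annotated 200 bases or fewer past it. The other 21 genes, with no stem-loop in the annotated transcript, held 25.2% with a median of 2. Hist2h2be and Hist1h2bc are among them. A polyadenylation hexamer, AATAAA or ATTAAA, stood in the last 50 bases of 17 transcripts, and these genes held 79.1% of the reads. Hist1h1c, with 2218 of the 4022 histone reads, is in the group with the largest share for each feature and carries most of that share. Longer genes collect more reads at the same level, and the 3 features overlap. Their separate parts were not tested.

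Genes without reads shared more sequence with other genes. The median share of 100-base stretches found in no other gene was 19.3% in the 21 genes without a read, 68.2% in those with 1 to 19 reads and 74.7% in those with 20 or more. In 9 genes it was under 10%, and 6 of these had no read. For Hist1h1c it was 94.9%, for Hist2h2be 100% and for Hist1h2bc 74.6%. Other genes here include annotations that overlap the same stretch of DNA on either strand. Several genes without a read lie wholly inside such an annotation, as Hist2h2aa1 does in the antisense gene Gm20633, which had 227 reads. The measure does not separate such overlaps from copies elsewhere. Values of the overlapped genes and of near-identical copies are uncertain, because how the authors' counting treated strand and reads that match several genes was not given.

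**Figure D4:**
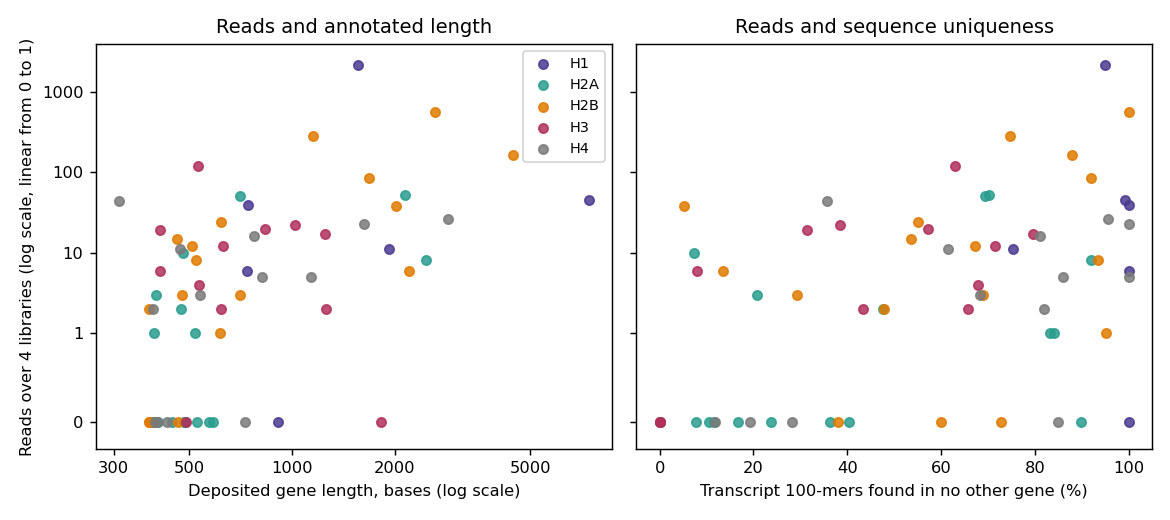
Reads over the 4 libraries for each of the 67 genes against the deposited gene length in bases (left, log axis) and against the percentage of transcript 100-base stretches found in no other gene (right), coloured by class. The 18 genes over 1000 bases held 88.9% of the reads, and genes without reads had a median of 19.3% unique stretches.

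The genes lie in 4 places in mm10. Chromosome 13 holds 54 of them between positions 21715763 and 23934851, chromosome 3 holds 10, chromosome 11 holds 2 and chromosome 6 holds Hist4h4. Among the histone genes of the chromosome 13 interval lie 47 other protein-coding genes, of which Zfp322a, Abt1 and Hfe reached 1 FPKM. Their log2 changes were -0.53 to -0.11, with a median of -0.41, and 0 of 3 passed the threshold. Hist1h1c and Hist1h2bc are both in this interval, and Hist2h2be is on chromosome 3.

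Histone variants encoded outside the clusters gave 0 higher and 0 lower of 9 tested in limma, with a median log2 change of 0.018. At an unadjusted p under 0.05, 2 of the 9 were lower, against 12.7% of all tested genes. H1f0, the replacement linker histone of resting cells, was at 229 and 233 FPKM in WT against 266 and 211 FPKM in Calu-KO, overlapping between the groups (log2 change 0.04, limma adjusted p = 0.890). H2afx, the variant that is phosphorylated at DNA breaks and is also made from a stem-loop transcript, was at 85.04 and 88.34 FPKM in WT against 55.5 and 41.8 FPKM in Calu-KO. Its groups did not overlap, and its log2 change of -0.83 ± 0.16 (SE) had an adjusted p of 0.0752 in limma. By voom on reads it was the 1 variant past the threshold, at adjusted p = 0.0200.

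Of the genes for histone mRNA 3′ end processing and decay, 1 of 18 tested rose and 0 fell, with a median log2 change of 0.14. Of all tested genes 0.942% rose and 1.83% fell. The gene that rose was Cpsf3, the endonuclease that cuts histone and polyadenylated pre-mRNAs, at 17.1 and 18.3 FPKM in WT against 33.5 and 39.2 in Calu-KO (log2 change 0.997 ± 0.127, SE; limma, adjusted p = 0.0359). Cpsf3 lies at chr12:21285391-21315056, and 6 of its 8 tested neighbours within 2 Mb also had positive changes, with a median of 0.68. Slbp, which binds the stem-loop, was at 14.2 and 14.7 FPKM in WT against 21.7 and 17.8 in Calu-KO (log2 change 0.42, limma adjusted p = 0.154). By voom on reads Cpsf3 was again higher, and Ncbp2, which codes for a subunit of the nuclear cap-binding complex, was lower (32.6 and 31.4 FPKM in WT against 21.9 and 15.8 in Calu-KO, adjusted p = 0.0346).

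Genes that act on histone genes and on their products, and cell cycle genes, gave no calls in limma. Their counts at an unadjusted p under 0.05 stand beside 12.7% lower and 12.0% higher of all tested genes. Their voom calls stand beside 3.91% lower and 2.69% higher of all genes tested by voom. Of 13 genes for histone gene transcription, among them Npat, the coactivator of the histone locus, 0 rose and 0 fell, with a median of 0.29 and 11 positive changes (3 higher and 1 lower at an unadjusted p under 0.05, and none by voom). Of 20 genes for histone chaperones, acetylation and import 0 rose and 0 fell, with a median of 0.06 (3 higher and 2 lower unadjusted, and none by voom). Of 20 S phase genes 0 rose and 0 fell, and their summed level was 787 and 812 FPKM in WT against 1024 and 961 in Calu-KO. Unadjusted, 6 of them were higher and 1 lower, and by voom 2 were higher, Rrm2 and Mcm6. Of 12 mitosis genes 0 rose and 0 fell, with sums of 645 and 674 FPKM in WT against 840 and 1000 in Calu-KO. Unadjusted, 5 of them were higher and 0 lower, and by voom 3 were higher, Mki67, Top2a and Cenpe. The S phase and mitosis sums were thus higher in both Calu-KO libraries while the histone sum was lower in both. Single genes went both ways. Of the S phase genes 14 had positive and 6 negative log2 changes, with a median of 0.15. Of the mitosis genes 8 were positive and 4 negative, with a median of 0.16.

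**Figure D5:**
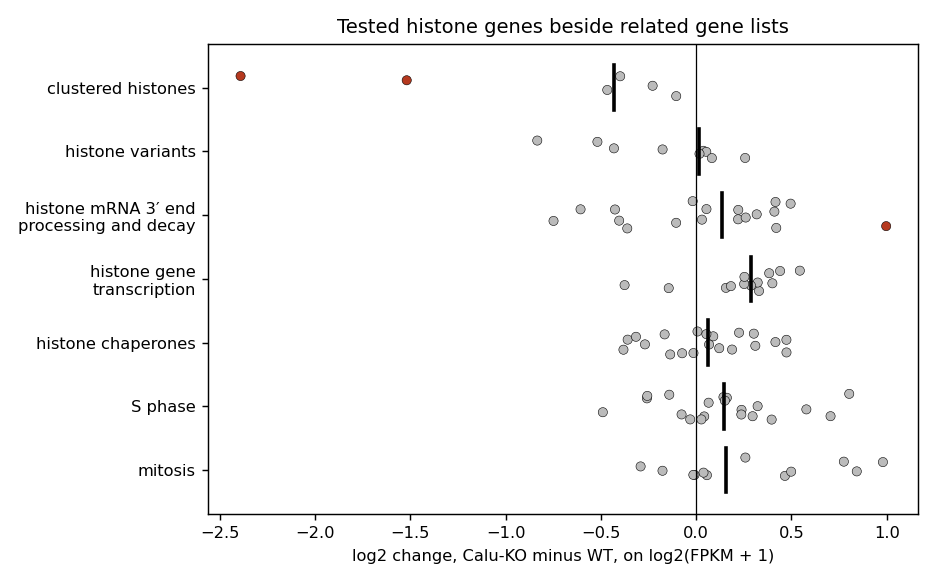
Log2 change, Calu-KO minus WT, on the log2(FPKM + 1) scale for the tested clustered histone genes and for tested genes of 6 related lists, with a bar at each median and genes past the threshold in red. The histone genes lie at or below -0.10 with a median of -0.43, and the medians of the other lists lie between 0.018 and 0.29.

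Of 6 small or nuclear RNAs without a poly(A) tail, 4 had no read in any library. Terc had 18 and 7 reads in WT against 7 and 6 in Calu-KO, and Rn7sk 0 and 9 against 3 and 1, so at this depth neither separated the groups by more than the spread within WT. Their summed reads were 18 and 16 in WT against 10 and 7 in Calu-KO. In FPKM the sums were 2.60 and 2.63 in WT against 1.51 and 1.18 in Calu-KO. The sum was thus lower in both Calu-KO libraries, on few reads, and the difference in the sum was not tested. Markers of other cells were lower in Calu-KO in 2 lists. The 5 macrophage markers summed to 11.1 and 12.2 FPKM in WT against 4.17 and 4.12 in Calu-KO, and 1 of 2 tested, Lyz2, fell, while Ptprc was near 0 and Adgre1 at 0 in the 4 libraries. The 4 mesothelial markers summed to 35.7 and 32.7 FPKM in WT against 25.3 and 22.2 in Calu-KO, and 1 of 2 tested, Krt8, fell, while Wt1 and Upk3b were near 0. Acta2, the smooth muscle actin of activated fibroblasts, was at or near 0 in every library. The part of these differences in the lower histone values was not tested. Across tested genes the log2 change fell with GC content (Spearman -0.31, a description across genes that are not independent), and the tested histone genes had a median GC of 54.6% against 49.4% for all tested genes. The 2 histone genes past the threshold lay on either side of the latter median, with a GC content of 55.1% in Hist1h1c and 45.9% in Hist1h2bc. With the GC trend removed the same 2 histone genes passed, at log2 changes of -2.27 and -1.60.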

How the data were processed

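TRIzol RNA was sequenced on an Illumina NovaSeq, per the labels' protocols. Per the submitters' processing notes, reads were aligned with HISAT2 2.0.5 to mm10. Sources used here do not give the counter, its annotation, use of strand or library selection. The authors deposited FPKM values for 54532 genes in 4 libraries. FPKM multiplied by length was a whole number of steps in each library for 100% of values (tolerance 0.001), which returned the reads. The step sizes match scaling by median-of-ratios size factors, so the columns were already scaled between libraries.

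Groups came from the genotype labels. The 2 groups were tested with limma 3.58.1 (R 4.3.3, two-sided, trended prior) on log2(FPKM + 1), a scale that shrinks changes at low levels. The 11885 genes whose mean reached 1 FPKM entered, with Benjamini-Hochberg adjustment over all of them and a threshold of 0.05. An exact permutation test of 2 against 2 cannot go below p = 0.333. Ratios of reads have exact (Clopper-Pearson) 95% intervals. Named histone genes were those that reached a mean of 1 FPKM or 20 reads, and others named are single examples. Same-numbered libraries deviated together at a correlation of 0.0153. The members and gene lists were chosen with earlier results of these data known. Both fits were tested on simulated data, where limma on log2(FPKM + 1) exceeded the share of false calls that its threshold allows in 3 of 3 runs. The share was 7.54% to 15.5% for limma. For voom it was 5.13%, 5.15% and 3.03%, so voom also went slightly over in some runs. Stem-loops and shared 100-base stretches were searched in GENCODE M21 transcripts (GRCm38). Alternatives were other pseudocounts, filters, scaling and priors, voom, a replicate block, each library left out and, chosen after the data were seen, removal of the GC trend.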

Additional observations from a re-analysis of the deposited data

How the results depend on the processing

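Hist1h1c and Hist1h2bc were both lower, and 0 histone genes higher, with pseudocounts of 0.1 and 0.5, without the trend in the prior, with voom, with a replicate block (2 lower, 0 higher; over all genes 312 lower and 181 higher) and with the GC trend removed. The numbers are not known to pair the libraries. With no filter on low values 0 of 46 histone genes and 0 of 24462 genes passed in limma (11 histone genes lower and 2 higher, and 3886 genes in all, at an unadjusted p under 0.05), and Hist1h1c was at adjusted p = 0.110. With a mean of at least 0.1 FPKM, and with rescaling to equal totals, 1 histone gene passed, Hist1h1c; rescaling shifted the median of all genes to -0.088. With the low filter 99 genes in all were lower and 29 higher, and with rescaling 152 and 45. Leaving out 1 library gave 1 to 3 lower histone genes (Hist1h1c in each case), with all-gene counts of 34 to 2805 lower and 8 to 2926 higher; the lone library is then assumed to vary like the others. Hist1h1c passed in 12 of 13 alternatives (log2 -2.63 to -2.15) and Hist1h2bc in 8 (-2.03 to -1.28). The sign turned for Hist1h3g (0.49 without WT replicate 1, 0.53 without Calu-KO replicate 2, 0.12 with the GC trend removed), Hist1h2ae (0.05 and 0.13 without WT replicate 1 or Calu-KO replicate 1) and Hist1h4k (0.21 without Calu-KO replicate 1), none of them called with all 4 libraries. With 1 library left out their ranges were -0.74 to 0.53, -0.58 to 0.13 and -1.004 to 0.21. The cause was not tested. The summed level changed by -1.54 (log2) in FPKM, -1.76 as a share of all reads and -0.89 without Hist1h1c and Hist2h2be; for H1 it was -2.49, and -1.69 without them; for H2B -1.26, -1.11 and -1.59. Leaving out 1 library gave -1.65 to -1.44 for all classes together. The sums of H2A (-0.87 to 0.31) and H3 (-1.24 to 0.11) turned sign with 1 library left out. Depth limits most members: 26 of 67 reached 10 reads.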
